A study of Mus musculus with 8 samples.

Results

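The genes described here encode the proteins of the cytoplasmic ribosome, followed across ventricles of newborn and 1-week-old mice with and without a cardiac troponin T mutation. Members were taken by symbol through the RefSeq accession of each array probe: Rpl or Rps, a number and at most 1 trailing letter, plus Rplp0, Rplp1, Rplp2 and Rpsa. The RefSeq gene table held 84 such symbols, of which 82 were on the array among 22909 named genes (Rpl32p and Rpl6l had no probe). Of these, 50 belong by name to the large 60S subunit and 32 to the small 40S subunit, they lie on 19 chromosomes, and RefSeq lists Rps4l as a transcribed pseudogene. They had 141 probes, 1 probe for each of 38 genes and several for each of 44, and the brightest probe stood for a gene. A gene was tested if, in at least 1 group, neither array had it near background, and 81 members were. The exception was Rpl10l, which was not well above background on any array. On all 8 arrays 80 members were well above background, and Rpl37 was so on 5.

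Hearts came from wild-type (WT) mice and from mice homozygous for a knock-in (KI) that deletes lysine 210 from cardiac troponin T, encoded by Tnnt2. The mutation models inherited dilated cardiomyopathy. Each genotype was sampled at birth (0 day) and at 1 week, with 2 single-colour Agilent arrays a group and 8 in all. Tissue of 3 ventricles was pooled for RNA; the sample labels say ventricle and the series text says left ventricle. Whether replicate arrays stand for separate pools is not said, so the p-values cover only array-to-array spread, which may be technical. The mutation is carried in the germ line, so no promoter or cell type limits it, and all other alleles and the sex of the animals are not given in the sources used here. Whether the Tnnt2 probe reads the deleted codon was not tested, so its level of 7.77 to 8.33 on the 8 arrays does not check the genotype labels.

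At 1 week the deposited records do not give the same genotype for every array, so these arrays are called A, B, C and D by their place on the slide. The authors' value table labels A and D as WT and B and C as KI. The scanner files label A and B as WT and C and D as KI. The value table's labels are used first and those of the scanner files beside them. A mean over all 4 arrays at 1 week is the same under both. On the slide, 1 row held the arrays of birth and the other those of 1 week, so age and slide row cannot be told apart. At birth, and at 1 week by the scanner files' labels, genotype and slide column likewise cannot be told apart. The extraction software's quality summary read ExtractionEvaluate for KI birth replicate 1 and ExtractionInRange for all other arrays.

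Cytoplasmic ribosomes are built from ribosomal RNAs and one copy of nearly every protein in this family, so the genes are expressed together at high levels in all dividing and growing cells. Their mRNAs carry a 5' terminal oligopyrimidine (TOP) motif, a cytosine followed by an unbroken run of pyrimidines at the transcription start. Through it, mTORC1 and the RNA-binding protein Larp1 set their translation and stability together. In the heart, ribosome content is a main determinant of how fast the growing cardiomyocyte can add protein, and the days after birth are when rodent cardiomyocytes pass from division to growth in size.

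The start regions of 6 members are shown because they span the responses described below. Rpl13a, Rpl5 and Rps3 fell with age, Rps6 is the S6 kinase substrate, Rps18 had probes that disagreed, and Rpl3l rose. Each line gives the RefSeq promoter table's GRCm38.p6 sequence on the gene's own strand, from 40 bases before to 20 bases after the annotated start, with the longest run of C and T in that stretch in capitals.
Rpl13a, chr7:45128726-45128785, minus strand: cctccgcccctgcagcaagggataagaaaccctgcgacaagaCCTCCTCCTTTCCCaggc
Rpl5, chr5:107900488-107900547, plus strand: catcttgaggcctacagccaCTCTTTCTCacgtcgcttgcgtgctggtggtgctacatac
Rps3, chr7:99483690-99483749, minus strand: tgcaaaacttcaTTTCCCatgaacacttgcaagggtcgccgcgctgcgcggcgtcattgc
Rps6, chr4:86857348-86857407, minus strand: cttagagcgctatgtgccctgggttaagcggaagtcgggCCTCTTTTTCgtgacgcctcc
Rps18, chr17:33955646-33955705, minus strand: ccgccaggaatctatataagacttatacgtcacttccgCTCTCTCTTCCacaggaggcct
Rpl3l, chr17:24727786-24727845, plus strand: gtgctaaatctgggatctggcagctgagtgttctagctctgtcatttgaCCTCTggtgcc

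The pyrimidine run was 14 bases long in Rpl13a, 11 in Rps18 and 10 in Rps6, and in these it began within 3 bases of the annotated start. In Rpl5 the longest run was 9 bases and began 20 bases before the start. Rps3 had 6 and Rpl3l, the muscle paralog, had 5, neither at the start. Over the 61 members that the table holds (10 of them with several starts), 47.5% had a run of at least 10 pyrimidines touching the 25 bases on either side of a start, against 13.9% of all 27025 genes of the table. A run of at least 12 was found in 27.9% of members and 7.62% of all genes. The median longest run was 9 bases in members and 6 in all genes. The base at an annotated start was C in 32.8% of members and in 18.9% of all genes, counting any start listed for a gene. Whether transcription begins at exactly these annotated bases was not tested.

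Short motifs were searched on both strands of the window from 250 bases before to 50 after a start. CTTCCG, the core recognised by Ets factors such as Gabpa, was in 67.2% of members and 18.8% of all genes. CTTTCC was in 52.5% against 29.3%, GGGCGG, the core of Sp1 sites, in 59.0% against 38.2%, and AAGATGG, part of the Yy1 motif, in 14.8% against 7.28%. TATAAA was in 11.5% of members and 15.7% of all genes. These motifs can overlap one another and are matches of letters, not mapped sites.

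**Figure D1:**
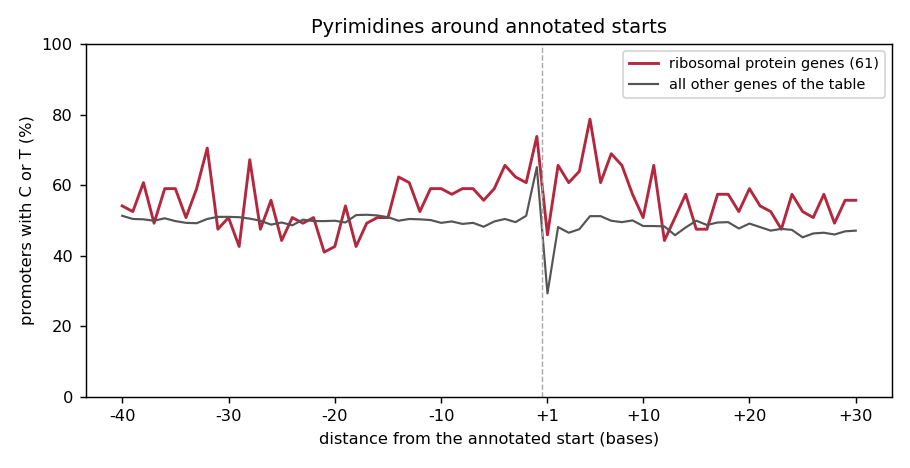
Share of promoters with C or T (percent, vertical axis) at each base from 40 before to 30 after the annotated start (horizontal axis), for the 61 ribosomal protein genes of the RefSeq promoter table (red) and all its other genes (grey), first listed start of each. The red line lies above the grey one at most positions from 15 bases before to 10 bases after the start.

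Levels are given as log2 of the processed signal minus the array's 75th percentile over probes that are not controls. A probe's signal also depends on its sequence, so levels of different probes are not compared as amounts of RNA. That percentile was 439.9 to 523.0 signal units on 7 arrays and 342.4 on array D, and 58.9% to 63.1% of probes were well above background on each array. No spot was saturated. In all, 68 members had a mean level over 6, against a median of 0.50 to 0.59 on each array over all 15744 tested genes. The median over the 81 tested members was 6.90 and 6.75 in WT at birth and 6.87 and 6.89 in KI at birth. At 1 week it was 6.58 on array A, 6.60 on B, 6.65 on C and 6.47 on D. Every birth array therefore stood above every 1-week array, and array D was lowest.

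Most ribosomal protein mRNAs were lower in the ventricle at 1 week than at birth, by a small and similar amount. Over both genotypes the median difference was -0.29 on the log2 scale, 81.9% of the birth level, while the median over all tested genes was -0.03. Of 81 members, 76 were lower and 5 higher. In limma's test with Benjamini-Hochberg adjustment over all tested genes, 31 members fell and 2 rose, Rpl3l and Rps20. Over all genes, 29.3% were called in this comparison, 14.5% as lower and 14.8% as higher, so the 38.3% of members that fell exceeded the share among all genes and the 2.47% that rose were below it. The fall took in both subunits: 20 of 49 genes of the 60S subunit and 11 of 32 of the 40S subunit fell, each with a median of -0.29. All 4 birth arrays lay above all 4 arrays of 1 week for 53 members, and the reverse held for 2. Over all genes these orders were seen for 19.4% and 16.2%. Fewer cells of a type and less RNA per cell cannot be told apart in such tissue RNA.

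The number of members called depended on single arrays, whereas the median did not change sign. Leaving out an array weakens the test for every gene, and the shares of all genes called in those fits are not given. The counts therefore do not show a dependence particular to the members. Which members were called changed too: Rpl12, Rpl26, Rpl28, Rps15, Rps20 and Rps27 lost their calls without array A. Against 33 called with all arrays, 3 were called without WT birth replicate 1, 4 without array B, 7 without KI birth replicate 2, 10 without KI birth replicate 1, 13 without WT birth replicate 2, 14 without array C and 18 without array D. Without array A there were 33. Rpl3l, Rpl17 and Rpl23 were called whichever of the 8 arrays was left out, with an adjusted p of 0.0115, 0.0467 and 0.0492 at most; each of the other 30 members called lost its call without at least 1 array. The median lay between -0.33 and -0.24 in these fits. With quantile normalization it was -0.21, with 16 members that fell and 2 that rose. With the scanner-file samples 37 members fell and 2 rose, and 31 of the 33 members called by the value table's labels were called again, against a background of 30% (15% in each direction).

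**Figure D2:**
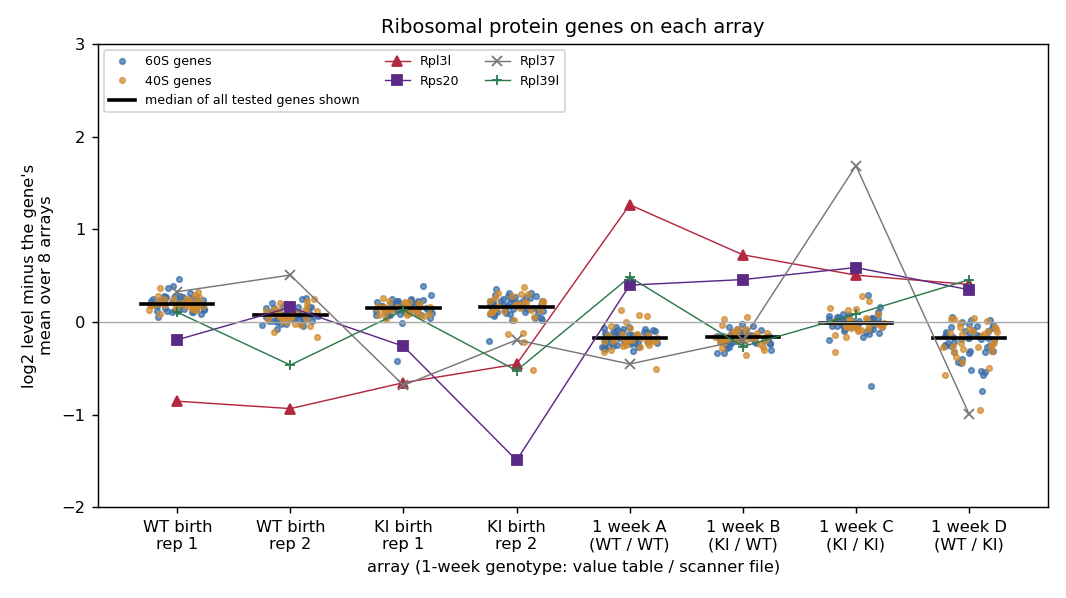
Each of the 81 tested ribosomal protein genes on each of the 8 arrays (horizontal axis, with the value-table and scanner-file genotype of arrays A to D), as its log2 level minus its own mean over all arrays (vertical axis). Dots are genes of the 60S (blue) and 40S (orange) subunit, black bars are medians, and lines follow Rpl3l, Rps20, Rpl37 and Rpl39l. The birth medians lie above 0 and the 1-week medians at or below it, Rpl3l runs the other way, and Rps20 is lowest on KI birth replicate 2.

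Among proteins of the 60S subunit, the lowest differences were those of Rpl13a and Rpl5. Rpl13a, which also acts in the interferon-induced GAIT complex that silences translation, had birth levels of 6.50 and 6.37 in WT and of 6.50 and 6.38 in KI; at 1 week, A to D read 6.06, 6.09, 5.42 and 5.58. No 1-week array reached any birth array, and arrays C and D were much lower than A and B. By the scanner files' labels that split is KI against WT, while by the value table's labels each side holds both genotypes. Rpl13a was not called between genotypes at 1 week by either record. It fell by 0.65 ± 0.18 (limma SE; adjusted p = 0.0327), to 63.6% of the birth level.

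Rpl5 joins Rpl11 and the 5S rRNA in a particle that enters the ribosome early and that, unassembled, restrains Mdm2. Its birth levels were 5.74 and 5.52 in WT and 5.51 and 5.59 in KI, and A to D read 5.04, 5.12, 5.17 and 4.53. The ages did not overlap, and array D was lowest. Rpl5 fell by 0.62 ± 0.13 (adjusted p = 0.0139). Its partner Rpl11 had levels of 7.59 to 7.76 at birth and 7.43 to 7.61 at 1 week, which overlapped, and its difference of -0.13 ± 0.09 did not pass the test (adjusted p = 0.308).

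Rpl17 and Rpl23a lie near the exit of the peptide tunnel, where Rpl23a is a docking site of the signal recognition particle, and Rpl23 lies on the face of the large subunit that meets the small one. Rpl17 had levels of 6.25, 6.15, 6.25 and 6.23 at birth, in the order of the arrays above, and 5.77, 5.77, 5.92 and 5.66 at 1 week. Rpl23 had 7.32, 7.26, 7.18 and 7.30 at birth and 6.82, 6.82, 6.93 and 6.78 at 1 week. In both genes the arrays of an age lay close together and the ages were apart. Rpl17 fell by 0.44 ± 0.09 (adjusted p = 0.0108), Rpl23 by 0.42 ± 0.09 (adjusted p = 0.0114) and Rpl23a by 0.45 ± 0.10 (adjusted p = 0.0149). Over 28 alternative settings, Rpl23 kept its call in 27 and Rpl17 in 25, with adjusted p up to 0.0515 and 0.0577. Rpl10, X-linked and one of the last proteins to join the large subunit, fell by 0.32 ± 0.09 (adjusted p = 0.0297).

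The stalk proteins recruit the GTPase elongation factors to the large subunit. Rplp0, the scaffold of the stalk, had levels of 7.18 to 7.48 at birth and 6.95 to 7.13 at 1 week. Its difference was -0.27 ± 0.11 (adjusted p = 0.105), although the ages did not overlap. Of the 2 smaller proteins, Rplp1 fell by 0.35 ± 0.09 (adjusted p = 0.0273). The value for Rplp2 was -0.17 ± 0.09 (adjusted p = 0.201).

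On the 40S side, the called genes included Rps3, at the entry of the mRNA channel, Rps7, Rps24 and Rps6. Rps3 had levels of 6.40, 6.34, 6.28 and 6.43 at birth and 5.97, 6.0, 5.95 and 5.54 at 1 week. Its ages did not overlap, and again array D was lowest. It fell by 0.50 ± 0.12 (adjusted p = 0.0209), and Rps7, which also binds Mdm2, fell by 0.45 ± 0.10 (adjusted p = 0.0175).

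Rps6, the classical substrate of the S6 kinases downstream of mTORC1, had levels of 6.57, 6.45, 6.51 and 6.53 at birth and 6.23, 6.24, 6.31 and 6.05 at 1 week. These sets were apart by 0.14 or more. It fell by 0.31 ± 0.09 (adjusted p = 0.0411), with the call kept in 9 of 28 alternatives and adjusted p up to 0.141. Rps19, the gene most often mutated in Diamond-Blackfan anaemia, had a difference of -0.20 ± 0.10 (adjusted p = 0.163). Rps27a, made as a fusion with ubiquitin, had -0.27 ± 0.09 (adjusted p = 0.0563), and Rpsa, also known as the laminin receptor, had -0.09 ± 0.12 (adjusted p = 0.597).

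**Figure D3:**
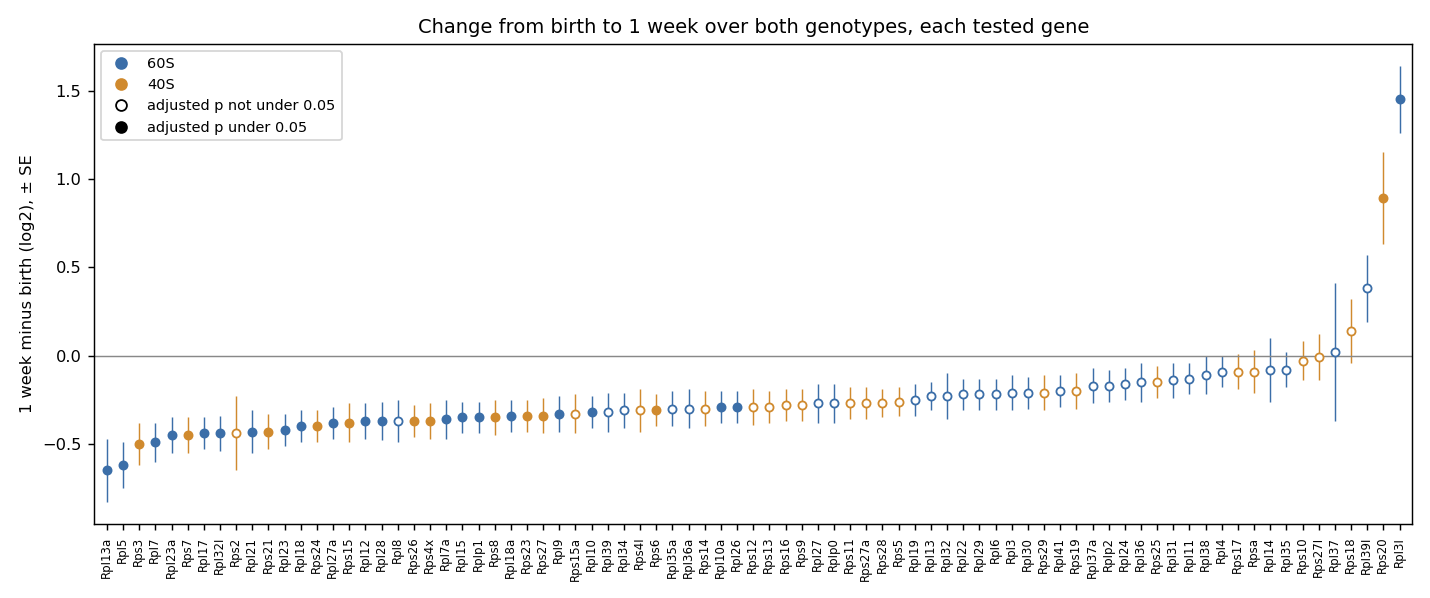
Difference from birth to 1 week over both genotypes (log2, vertical axis) for each of the 81 tested ribosomal protein genes, in order of size; bars are limma standard errors, blue is the 60S and orange the 40S subunit, and filled points passed the adjusted threshold of 0.05. Most genes lie between -0.5 and 0, from Rpl13a at -0.65, while Rpl3l at 1.45 and Rps20 at 0.89 are the filled points above 0.

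The gene that moved most went the other way. Rpl3l encodes a paralog of Rpl3 made in skeletal and cardiac muscle, which takes the place of Rpl3 near the peptidyl transferase centre. Its birth levels were -1.04 and -1.12 in WT and -0.84 and -0.64 in KI, and A to D read 1.08, 0.54, 0.32 and 0.22. Every 1-week array was above every birth array, and array A was highest. Rpl3l rose by 1.45 ± 0.19 (adjusted p = 0.00202), 2.73-fold, and its call was kept in all 28 alternatives, with adjusted p from 0.000283 to 0.0115. Rpl3 had levels of 6.70 to 6.95 at birth and 6.50 to 6.76 at 1 week, which overlapped, with a difference of -0.21 ± 0.10 (adjusted p = 0.152).

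None of the other paralogs in the family rose past the threshold, although Rpl39l and Rpl39 differed in the same directions as Rpl3l and Rpl3. Rpl39l, known from testis, had levels of -4.41 to -3.76 at birth and -4.15 to -3.40 at 1 week, a difference of 0.38 ± 0.19 (adjusted p = 0.184), and Rpl39 had -0.32 ± 0.11 (adjusted p = 0.0742). Rps27l, a p53 target, differed by -0.01 ± 0.13 (adjusted p = 0.945), while its parent Rps27 fell by 0.34 ± 0.10 (adjusted p = 0.0359). The signal of Rpl10l, also a testis gene, stayed between -7.47 and -6.92, below the background criterion. Rpl32l fell by 0.44 ± 0.10 (adjusted p = 0.0149), and Rps4x, an X-linked gene, by 0.37 ± 0.10 (adjusted p = 0.0311). The pseudogene Rps4l had -0.31 ± 0.12 (adjusted p = 0.0907). Rpl32l and Rps4l may share sequence with Rpl32 and Rps4x, and whether their probes read only the named copy was not tested.

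Rps20, a protein of the 40S head, was the other member that rose, and 1 array carried much of the difference. Its birth levels were 7.17 and 7.52 in WT and 7.10 and 5.87 in KI, and A to D read 7.76, 7.82, 7.95 and 7.71. KI birth replicate 2 was far below the other birth arrays. Rps20 rose by 0.89 ± 0.26 (adjusted p = 0.039). Without KI birth replicate 2 the value was 0.58 (adjusted p = 0.0299). Leaving out any other single array except KI birth replicate 1 ended the call, with adjusted p from 0.0697 to 0.119, as did testing all genes without the background filter (adjusted p = 0.0771).

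KI birth replicate 2 was also lowest of the birth arrays for Rps18 (7.29 against 7.65 to 8.03), Rpl32 (6.90 against 7.26 to 7.41), Rps15a (6.33 against 6.66 to 6.82) and Rps10 (7.63 against 7.86 to 8.03), a set picked after the values were seen. Most other probes of these genes were not lowest there. On that array the second probe of Rps18 read 5.95 against 5.58 to 5.74 on the other birth arrays, and the second probe of Rps10 read 5.61 against 5.51 to 5.59. The second probe of Rps15a read 5.87, within the 5.78 to 5.95 of the others, but its dimmest probe read -3.10 against -3.06 to -2.70. Rps20 and Rpl32 had 1 probe each, so the same check could not be made for them.

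For 43 members with more than 1 probe well above background on all arrays, the probes could be set beside each other. The mean of the other probes was lower at 1 week in all 43 and the brightest probe in 42. The median was -0.29 for the brightest probe and -0.38 for the others, which were the lower of the pair in 33 genes and the higher in 10. Rps18, which lies in the 40S head and is often used as a reference gene, differed most: its brightest probe gave 0.14 ± 0.18 (adjusted p = 0.598), and its other probes gave -0.48 and -0.58. For Rps10 the probes gave -0.03 and -0.45. Of all 137 member probes above background on every array, 132 were lower at 1 week, 96.4%, with a median of -0.33.

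**Figure D4:**
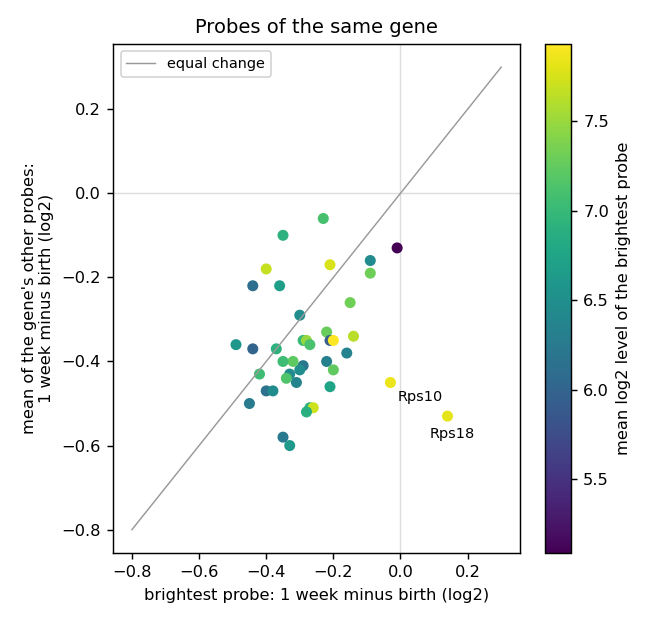
Difference from birth to 1 week (log2) of each gene's brightest probe (horizontal axis) and of the mean of its other probes (vertical axis) for 43 ribosomal protein genes, coloured by the mean log2 level of the brightest probe; the line marks equal change. 33 genes lie below the line, and Rps18 (0.14 on the horizontal axis) and Rps10 (-0.03) lie farthest to the right of those with other probes near -0.5.

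Differences were smaller for members with bright probes. The 26 members with the brightest probes (levels 7.18 to 8.02) had a median of -0.19, and 2 of them fell. In the next 27 (6.45 to 7.17) the median was -0.34 and 15 fell. In the 27 with the dimmest probes (-3.88 to 6.44) it was -0.31 and 14 fell. Rpl37, not above background on every array, was left out of this division, which was not tested. Rps24, a protein needed to process the precursor of 18S rRNA, was 1 of the 2 bright members that fell: its levels were 7.92, 7.92, 7.89 and 7.77 at birth and 7.68, 7.32, 7.35 and 7.55 at 1 week. The ages did not overlap, and arrays B and C were lowest. It fell by 0.40 ± 0.09 (adjusted p = 0.0145), while the probes for its other RefSeq transcripts each gave -0.18.

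Members with long and with short pyrimidine runs at the start had the same median change. The 29 members with a run of at least 10 had a median of -0.29, from -0.65 to 0.14, and 28 were lower. The 31 members with a shorter run had the same median of -0.29, from -0.62 to 1.45, and 28 were lower. No test was made of this split.

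In WT alone the median from birth to 1 week was -0.30, 77 of 81 members were lower, 8 fell and 1 rose. Over all genes 19% were called in this comparison with all arrays, 8.96% as lower and 10% as higher. The shares of all genes called without single arrays are not given. The genes that fell were Rpl5 (-0.84 ± 0.19; adjusted p = 0.0247), Rpl23a (-0.59 ± 0.14; adjusted p = 0.0283), Rpl23 (-0.49 ± 0.12; adjusted p = 0.0342), Rpl17, Rps3, Rpl21, Rps7 and Rps4x. Rpl3l rose by 1.73 ± 0.27 (adjusted p = 0.0076). With the scanner-file samples, 2 fell and 1 rose, with a background of 12.7% (5.67% lower and 6.98% higher), and Rpl3l and Rpl23 were called by both records. Rpl3l was called whichever array was left out (adjusted p up to 0.0444). By the value table's labels the number called was 16 without array A and 1 without array D or without either WT birth array. It was 4 without array B, 3 without array C or KI birth replicate 2, and 2 without KI birth replicate 1.

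In KI alone the median was -0.24, 73 members were lower, Rps24 fell by 0.49 ± 0.12 (adjusted p = 0.0461) and Rpl3l rose by 1.17 ± 0.27 (adjusted p = 0.0371). The background with all arrays was 10.6%, of which 4.75% lower and 5.86% higher, and backgrounds without single arrays are not given. With the scanner-file samples 3 fell and 1 rose, with a background of 15.3% (6.88% lower and 8.38% higher), and only Rpl3l was called by both records. By those labels, 25 members were called without array C and 1 or 2 without any other single array. By the value table's labels, both calls were lost without any 1 of the KI arrays or the WT birth arrays, with adjusted p up to 0.176 for Rpl3l and 0.198 for Rps24. At an unadjusted p under 0.05 there were 21 members with all arrays. WT and KI share no arrays, but the difference between their changes is the age by genotype comparison given below, in which no member passed.

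At birth, ribosomal protein genes had nearly the same levels in KI and WT. The median difference was 0.02, and 50 of 81 members were higher in KI; with median scaling the median was -0.04 and 19 were higher, so no direction can be given. No member passed limma's test, where 0.0381% of all genes did, and 1 had an unadjusted p under 0.05. That was Rps20, at -0.86 ± 0.36 (adjusted p = 1.0), whose arrays are given above. Among those higher, Rpl26 had 0.17 ± 0.12 and Rpl3l 0.34 ± 0.27, both with an adjusted p of 1.0. Both KI arrays lay above both WT arrays for 8 members and below for 4, against 16.7% and 15.2% of all genes.

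At 1 week the median member was slightly higher in KI by both records, which share array C as KI, and no single gene passed the test. The median difference was 0.08, against 0.03 over all genes, and 70 of 81 were higher in KI. None passed limma's adjusted threshold, which 0.0508% of all genes did, and 2 had an unadjusted p under 0.05. The arrays labelled KI, B and C, had member medians of 6.60 and 6.65, and those labelled WT, A and D, had 6.58 and 6.47. The spread of array medians within groups was 0.069 (SD), so the shift is about the size of the spread between replicates. Without single arrays the median ran from 0.01 to 0.18. With the scanner-file samples the median was also 0.08, 58 members were higher and none was called, where 0.00635% of all genes were. By those labels the KI arrays C and D had member medians of 6.65 and 6.47. The WT arrays A and B had 6.58 and 6.60, so C lay above both WT arrays and D below both.

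The genes with the smallest p at 1 week were Rps4l and Rpl37. Rps4l had 4.24 on A and 4.47 on D against 4.63 on B and 5.02 on C, a difference of 0.47 ± 0.17 (adjusted p = 0.686). Rpl37 had -5.0 on A and -5.54 on D against -4.74 on B and -2.86 on C, so the difference of 1.47 ± 0.55 (adjusted p = 0.686) rested on array C. Rpl5 had 0.35 ± 0.19 and Rpl21 0.37 ± 0.17, both with an adjusted p of 0.689, and array D was lowest for both. By the scanner-file labels Rpl5 and Rpl21 were -0.23 ± 0.21 (adjusted p = 0.755) and -0.05 ± 0.22 (adjusted p = 0.964), the other sign. On the lower side, Rps24 had -0.28 ± 0.12 (adjusted p = 0.689) by the value table and -0.05 ± 0.16 (adjusted p = 0.951) by the scanner files.

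For Rpl3l the difference at 1 week was -0.22 ± 0.27 (adjusted p = 0.817) by the value table's labels and -0.54 ± 0.19 (adjusted p = 0.459) by those of the scanner files. By the latter, the WT arrays A and B (1.08 and 0.54) were above the KI arrays C and D (0.32 and 0.22). By the former, the WT arrays hold both the highest and the lowest value. Both KI arrays lay above both WT arrays for 19 members and below for 2 by the value table, where 19.8% and 18.0% of all genes did. By the scanner files these numbers were 33 and 7, against 20.2% and 19.7%. Members rise and fall together from array to array, so such counts are not independent gene by gene.

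The age by genotype comparison asks whether the change from birth to 1 week differed between KI and WT. The median was 0.08, against 0.02 over all genes, and 58 of 81 members were positive. No member passed limma's test, which 0.00635% of all genes did, and 1 had an unadjusted p under 0.05. That was Rpl37 (2.33 ± 0.78; adjusted p = 0.888), a probe near background. For Rpl3l the value was -0.55 ± 0.38 (adjusted p = 0.888). With the scanner-file samples the median was 0.04, 50 members were positive and none was called, nor was any of all genes tested (0.0%; 991 had an unadjusted p under 0.05). By that record Rpl37 gave 1.53 ± 1.07 (adjusted p = 0.898) and Rpl3l -0.88 ± 0.27 (adjusted p = 0.774). With quantile normalization the median was 0.01, and with median scaling, which moved the median of all genes to 0.169, it was 0.22.

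Other genes that work with the ribosome were mostly lower at 1 week too, and the share that fell differed from list to list; over all genes it was 14.5%, with 14.8% risen. The TOP mRNA partners are other mRNAs known to carry a TOP motif. Of 19 tested, 17 were lower, 6 fell (31.6%) and none rose, with a median of -0.24. Npm1, a nucleolar chaperone of ribosome assembly, had levels of 5.16 to 5.38 at birth and 4.56 to 4.72 at 1 week, which did not overlap, and fell by 0.63 ± 0.09 (adjusted p = 0.00281). Hnrnpa1, an RNA-binding splicing factor, fell by 0.70 ± 0.13 (adjusted p = 0.00859), and Eif4b, a cofactor of the Eif4a helicase, by 0.54 ± 0.10 (adjusted p = 0.0089). Of ribosomal proteins named outside the rule, Fau had -0.17 ± 0.09 (adjusted p = 0.196) and Rack1 -0.14 ± 0.09 (adjusted p = 0.261).

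Of 78 tested genes of ribosome biogenesis, the nucleolar factors and RNA polymerase I subunits that make the particle, 19 fell (24.4%) and none rose, with a median of -0.25. Rrs1, which brings the 5S particle into the large subunit, fell from levels of 1.13 to 1.34 at birth to 0.05 to 0.57 at 1 week, by 0.86 ± 0.14 (adjusted p = 0.00457). The polymerase I subunits Polr1a and Polr1b fell by 0.61 ± 0.10 (adjusted p = 0.00581) and 0.56 ± 0.10 (adjusted p = 0.00564). Of 39 translation initiation and elongation factors, 37 were lower and 4 fell, a share of 10.3% against the 14.5% of all genes. Among them was Eif4ebp1, the repressor of the cap-binding protein that mTORC1 phosphorylates, at -0.68 ± 0.13 (adjusted p = 0.00901). Eef2k, the kinase that halts elongation factor 2, also fell, by 0.54 ± 0.10 (adjusted p = 0.00841).

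Among 33 mTORC1 components and ribosome regulators, 5 fell and 1 rose, with a median of -0.09. The 15.2% that fell is close to the 14.5% of all genes. Myc, a transcription factor that drives ribosomal protein and biogenesis genes, had birth levels of 0.91 and 1.55 in WT and of 1.18 and 1.41 in KI; A to D read -1.22, -1.30, -0.73 and -1.53. The ages were far apart. Myc fell by 2.46 ± 0.20 (adjusted p = 0.000331), whereas its relative Mycn, at 0.89 to 1.32 at birth and 1.92 to 2.31 at 1 week, rose by 0.96 ± 0.10 (adjusted p = 0.00101). Mtor and Larp1 gave -0.45 ± 0.15 (adjusted p = 0.0655) and -0.26 ± 0.10 (adjusted p = 0.0868). Of 7 ribosomal-like genes outside the rule, all were lower and 3 fell (42.9%): Rsl1d1 by 0.50 ± 0.09 (adjusted p = 0.0081), Rpl22l1 by 0.41 ± 0.08 (adjusted p = 0.0121) and Rsl24d1 by 0.75 ± 0.20 (adjusted p = 0.0309).

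The mitochondrial ribosome, a separate particle with its own nuclear-encoded proteins, gave a median of -0.07 over 78 tested genes, of which 4 fell (5.13%) and 1 rose. For KI minus WT at 1 week, the direction of most of these lists depended on the record of the 1-week arrays. For the mitochondrial ribosome the median was 0.14 by the value table's labels, with 71 of 78 genes higher in KI, and -0.20 by the scanner files' labels, with 67 of 78 lower. For the translation factors it was 0.10 and -0.09, and for ribosome biogenesis 0.09 and -0.02. The TOP mRNA partners gave 0.11 and 0.05. None of these genes was called by either record.

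**Figure D5:**
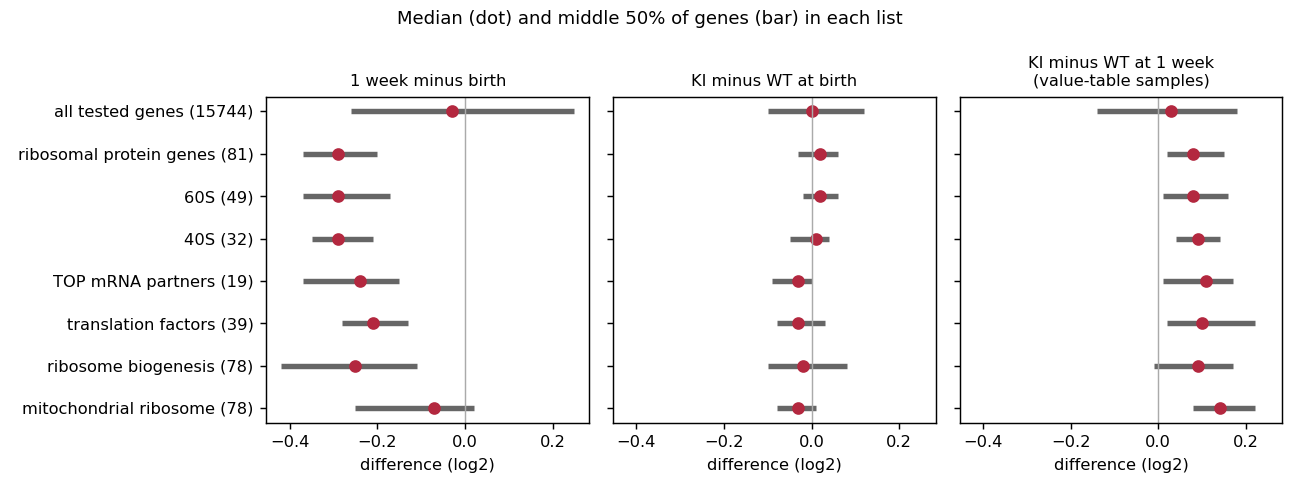
Median (red dot) and middle 50% (grey bar) of the differences (log2, horizontal axis) of each gene list, with the number of tested genes, for 1 week minus birth, KI minus WT at birth and KI minus WT at 1 week by the value table's labels. With age the ribosomal protein genes lie at -0.29 and the mitochondrial ribosome at -0.07; at birth every list lies between -0.03 and 0.02.

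Markers of some other cell types differed with age as well. Over all genes, 14.8% were called as higher at 1 week over both genotypes and 14.5% as lower. The counts of erythroid and cardiomyocyte markers below are near or under these shares, so they are not read as a result. The log2 of the summed signal of 10 fibroblast markers was 8.13 to 8.36 at birth and 8.95 to 9.30 at 1 week, with 6 risen and 1 fallen. For 10 endothelial markers it was 7.27 to 7.31 and 7.59 to 8.08, with 4 risen, and for 13 of 14 adipocyte markers 8.92 to 9.04 and 9.12 to 9.54, with 6 risen. The adipocyte sum includes bright genes such as Cox8b, at 6.93 to 7.0 at birth and 7.85, 7.44, 7.45 and 7.87 on A to D. The median level of that list was -4.62 to -3.19 at birth and -4.21, -1.16, -1.27 and 0.11 on A to D. By that median, array A lay within the range of the birth arrays. Ucp1, the thermogenic protein of brown fat, had birth levels of -7.28 to -6.84, while arrays A to D gave -6.28, 0.52, 1.23 and 2.40. Leukocyte markers gave 5.91 to 6.33 and 6.0 to 6.83 (6 risen and 5 fallen of 14), and erythroid markers 10.03 to 10.17 and 9.99 to 10.55 (2 risen and 2 fallen of 12). Cardiomyocyte markers, which identify the labelled tissue, gave 11.99 to 12.07 and 11.87 to 11.92 (2 risen and 2 fallen of 18). That sum includes the myosin gene Myh7, at 9.44 to 9.52 at birth and 4.61, 7.12, 7.28 and 4.54 on A to D. The median level of the same list was 6.88 to 6.96 at birth and 7.0, 7.08, 7.08 and 6.65 on A to D. Atrial markers gave 8.78 to 9.20 at birth, 8.68 to 8.92 on arrays B to D and 6.13 on A. The part of these cells in the fall of the ribosomal protein genes was not tested.

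Cell cycle genes and the members both had their highest signal of 1 week on array C. Their summed signal was 7.54, 7.67, 8.02 and 7.21 on arrays A to D, and that of the members was 13.09, 13.08, 13.25 and 13.09. KI minus WT at 1 week for the cell cycle list was 0.48 in the median by the value table's labels, with 35 of 36 genes positive and none called. By the scanner files' labels it was 0.01, with 19 positive and none called. Its part in the small shift of the members was not tested.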

How the data were processed

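RNA of pooled ventricles was read on 8 arrays of 1 slide in 1 scan. The deposited scanner files hold processed intensity, corrected for background within each array by the authors' software (Feature Extraction 11.0.1.1 and build mm9 per the file headers, version 9.1 per the submitters' processing notes). Flags for background and saturation are coded 0 or 1 (other), per the file headers. The deposited value table holds the same intensity averaged per probe. Each of its columns equalled 1 scanner file within a relative tolerance of 0.0001; for 3 of the 4 at 1 week that file belonged to another sample. Spots of a probe were averaged (56590 probes kept, 15 without a usable spot), log2 was taken and the 75th percentile of probes that are not controls was subtracted. RefSeq accessions (GRCm38.p6 table) named 32988 probes. Genes that passed the background filter entered limma 3.58.1 (R 4.3.3; lmFit, eBayes): 4 group means, 8 arrays, 4 residual degrees of freedom, Benjamini-Hochberg adjustment within each of 6 comparisons, threshold 0.05. 15744 genes were tested with the value table's samples and 15757 with those of the scanner files. The procedure was tested on simulated data with changes larger than those of most members, so that test does not bear on changes as small as theirs. Values after ± are limma standard errors, and precision is limited by the number of arrays.

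Members, gene lists and tests were chosen with earlier results of these data known. Members are named if they have one of the 5 smallest p in either direction of a comparison, are paralogs or their parents, or are stalk or otherwise well-known proteins; other genes if they have one of the 3 smallest p of their list. Members and genes outside this rule are said to be chosen after their values were seen, or belong to a list described by its counts. Groups of 2 arrays are too small for an exact permutation test to pass the threshold. Of the alternatives, 19 were planned and 10, which combine the scanner-file samples with other choices, were added after seeing the data.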

Additional observations from a re-analysis of the deposited data

Results flagged for a closer look

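Rpl37 and Rps20 were flagged because the KI arrays lay on one side of both WT arrays at birth and on the other side at 1 week, by the value table's labels. Such separation is frequent: both KI arrays lay above both WT arrays for 16.7% of all genes at birth and below for 15.2%. At 1 week these shares were 19.8% and 18.0%. The share of all genes that change sides is not given, so the pattern is not read as particular to these members. For Rpl37, KI minus WT was -0.86 at birth and 1.47 at 1 week, a difference of 2.33 (adjusted p = 0.888 in limma's age by genotype test). For Rps20 it was -0.86 and 0.15, a difference of 1.01 (adjusted p = 0.888). Neither difference passed the test. By the scanner files' labels this did not hold for either gene: KI lay on both sides of WT at 1 week, with KI minus WT of 0.67 for Rpl37 and 0.04 for Rps20. Rpl37 was well above background on only 5 of the 8 arrays, and the low value of Rps20 at birth was that of 1 array, KI birth replicate 2. The cause was not tested.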

How the results depend on the processing

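For most of these alternatives the share of all genes called is not given, so the counts describe the members only. For the change with age over both genotypes (33 members called, median -0.29), quantile normalization gave 18 called and a median of -0.21 (also -0.21 with the scanner-file samples), median scaling a median of -0.37, no background filter 15 called and an intensity trend 50. Leaving out 1 array gave 3 to 33 called (4 to 52 by the scanner files) and a median of -0.33 to -0.24. For WT alone (9 called, median -0.30), 3 were called with the scanner-file samples, 3 with quantile normalization (2 with both), 21 with normexp, 1 without a filter, 15 among genes above background on all arrays, 2 with only the arrays compared and 25 with a trend; the median was -0.46 with median scaling, -0.23 with the percentile over probes above background and -0.21 with quantile normalization (-0.19 by the scanner files). Leaving out 1 array gave 1 to 16 called (1 to 11 by the scanner files) and medians of -0.36 to -0.25 (-0.37 to -0.25). For KI alone (2 called, median -0.24), 4 were called with the scanner-file samples (5 with quantile normalization too), 1 with the mean of all probes, 0 without a filter, 1 with only the arrays compared and 5 with a trend; leaving out 1 array gave 0 to 2 (1 to 25) called and medians of -0.31 to -0.18 (-0.35 to -0.18). For KI minus WT, leaving out 1 array moved the median from -0.05 to 0.08 at birth and from 0.01 to 0.18 (0.00 to 0.16) at 1 week, with 0 called (0 to 1 by the scanner files at 1 week); median scaling gave 0.17 at 1 week. For age by genotype the median was 0.22 with median scaling, 0.01 with quantile normalization, -0.01 with that and the scanner-file samples, and -0.01 to 0.15 (-0.03 to 0.14) without 1 array. The change of Rpl37 with age lay between -0.65 and 0.70 without 1 array by the scanner files, and turned to -0.65 (adjusted p = 0.0255) without array C.

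With the replicate number as a block, 29 members were called over both genotypes, 4 in WT (2 by the scanner files) and 1 in KI, and the medians did not change. Replicate numbers did not pair the arrays: between groups, the difference of replicate 1 minus 2 correlated over genes at -0.137 to 0.286. The cause of these differences was not tested. No spot was saturated, so leaving out saturated spots was not run, and normexp used the median spot signal, as the mean was not in the files. Signal over background limits the values of Rpl10l and Rpl37, and the 4 residual degrees of freedom limit the precision of every difference.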
